A study of Mus musculus with 3 samples.

Results

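Fatty acids enter heart muscle through lipoprotein lipase at the vessel wall and through membrane transporters, are held by small binding proteins, are activated to acyl-CoA, and pass into mitochondria on carnitine. The cycle of beta-oxidation then shortens them to acetyl-CoA and hands electrons to the respiratory chain through the electron transfer flavoprotein. The fetal heart relies mainly on glucose and lactate, and the genes of this route are known to be turned up around and after birth under the nuclear receptors PPARalpha and ERRalpha and their coactivator PGC-1alpha. The 42 genes described here, of 20024 RefSeq genes named on the array, cover that route in 5 steps, with 6 genes of uptake and binding, 6 of activation, 6 of the carnitine shuttle, 15 of beta-oxidation and 9 regulators and their targets. They were chosen by name and not by a cutoff on measured values, but earlier results of these data were known at the time. Every array probe whose gene name was one of them was taken (Eci1 is written Dci on the array). That gave 63 of the 41174 gene probes on each array, and 16 of the 42 genes had more than 1 probe.

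Hearts of C57BL/6 mouse embryos at embryonic day 15.5 were compared on 3 two-colour Agilent arrays. On each array RNA pooled from 2 Lrrc10-/- hearts was labelled with Cy5 and RNA pooled from 2 wild-type (Lrrc10+/+) hearts of littermates with Cy3, and the dyes were never exchanged, so a dye effect and a genotype effect cannot be told apart. The 3 arrays are the 3 independent biological replicates of the study, the deletion is in the germline, and the wild-type labels also carry an adult age beside the embryonic day, of which the embryonic day was taken. Values are log2 ratios of Cy5 over Cy3 after background correction and loess normalization, given for replicates 1, 2 and 3 in that order, with the standard deviation (SD) over 3 arrays beside each mean.

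Lrrc10, the deleted gene, is expressed in cardiomyocytes. Its probe went against the labels, with log2 ratios of 3.99, 4.78 and 4.45, a signal far higher in Cy5, the dye of the pools labelled Lrrc10-/- (adjusted p = 0.000386 by limma). Whether that probe lies within the deleted part is not given in the sources used here. Every direction below is therefore that of the channel labelled Lrrc10-/- over the channel labelled wild type, and every sign would turn if the channels were exchanged. Replicate 3 had the smallest share of gene spots well above background, 63.9% in Cy5 against 88.9% and 82.4% on replicates 1 and 2, and it shares its scanner model and software version with replicate 2. Across the 60 tested fatty acid probes the log2 ratios of replicates 1 and 2 had a correlation of 0.573, while replicate 3 gave 0.00657 with replicate 1 and 0.213 with replicate 2. Over all 28328 tested probes the same correlations were 0.509, 0.218 and 0.223. These are correlations across probes, which are not independent.

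The markers of heart, the labelled tissue, were present. All 10 cardiomyocyte markers listed (Myh6, Myh7, Tnnt2, Tnni1, Actn2, Myl2, Myl3, Myl7, Ryr2 and Nkx2-5) passed the filter on dim probes, with summed processed signals of 323000 to 606000 in Cy5 and 365000 to 802000 in Cy3. The 4 of them that were saturated in both channels on no array, Myh6, Actn2, Ryr2 and Nkx2-5, had mean log2 ratios of -0.21, -0.28, -0.02 and -0.13, none of which passed the test. The study reports Actn2 as higher in Lrrc10-/- embryonic hearts, by its array results and by quantitative PCR. Here the Actn2 probe gave -0.59, -0.28 and 0.05 (limma adjusted p = 0.477). Its mean was opposite in sign to the study's direction, but the 3 arrays did not share a sign. Of the 8 endothelial markers, 5 lay above 0, with a median of 0.11 and summed signals of 33800 to 81100 in Cy5 and 32200 to 78400 in Cy3, and their part in the values of Lpl, Cd36 and Fabp4 was not tested. Adipocyte markers summed to no more than 200 in Cy5 and 235 in Cy3, with Cfd and Lep not well above background. Of 8 liver markers, 5 were tested, with medians of 0.71, -1.97 and 0.17 on replicates 1, 2 and 3. Their summed signals were 2690 to 25400 in Cy5 and 2330 to 29300 in Cy3. The part of liver RNA in the fatty acid values was not tested. In pooled whole hearts, fewer cells of a type and less RNA per cell cannot be told apart.

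No fatty acid gene passed the test. Of the 63 probes, 60 were well above background in at least 1 channel on all 3 arrays and were tested, and they covered 41 of the 42 genes. Of these 60 probes, 0 were higher and 0 were lower at an adjusted p under 0.05 by limma, where 1.39% of all tested probes were higher and 0.00353% lower. At an unadjusted p under 0.05, 10 were higher (16.7% of the 60, against 9.07% of all probes) and 4 lower (6.67%, against 4.26%). The same test without limma's shared spread called 0 after adjustment, with 2 higher and 3 lower at an unadjusted p under 0.05, where 5.4% of all probes were higher and 3.89% lower. The loess log2 ratio was above 0 on all 3 arrays for 9 probes (15% of the 60, against 19.1% of all) and below 0 on all 3 for 9 (15%, against 17.4%). By gene, 21 lay above 0 and 20 below, and the median log2 ratio was 0.01, beside 0.02 over all 15710 genes tested. At an unadjusted p under 0.05 by limma, 6 of the 41 genes were higher and 3 lower. Of all genes tested, 10.2% were higher and 4.86% lower by that measure. The 10 higher probes included 2 each of Slc27a1 and Etfdh. Without the 4 genes whose probe was saturated in both channels on at least 1 array, 20 lay above 0 and 17 below. The share of fatty acid probes with 1 direction on all arrays was thus no larger than that of the array as a whole.

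**Figure D1:**
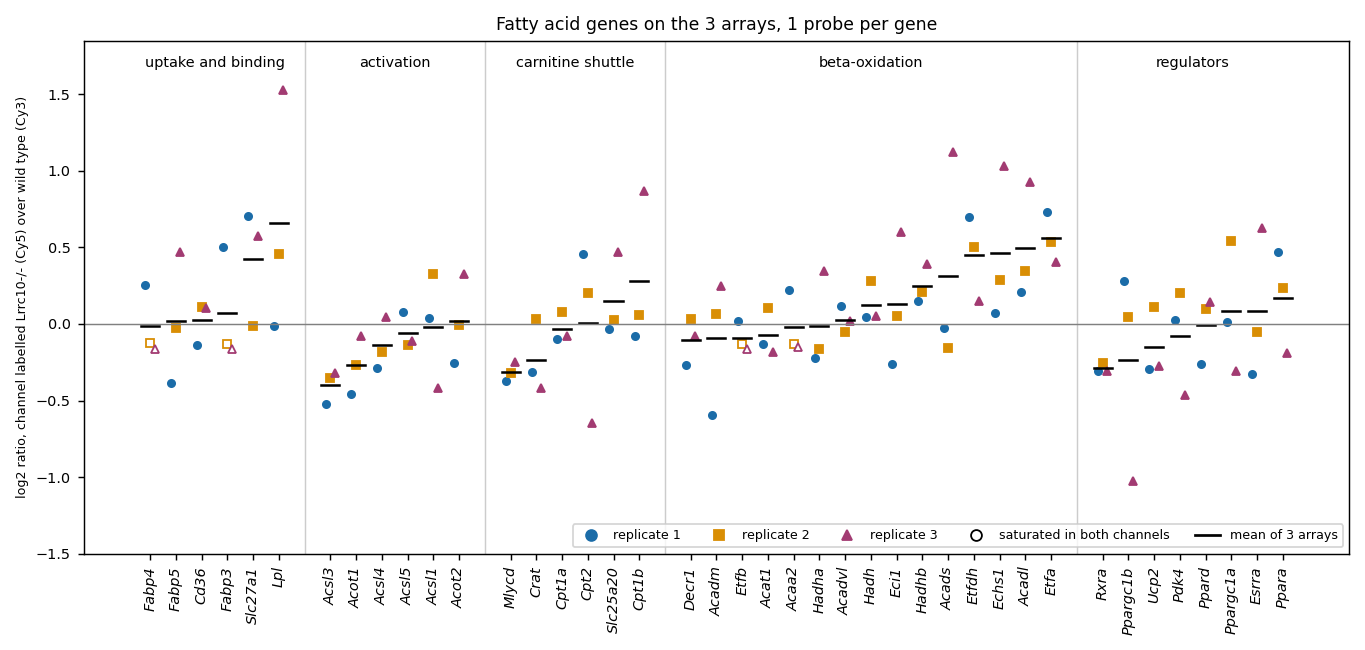
Log2 ratios (vertical axis) of the 41 tested fatty acid genes, by step along the horizontal axis, for replicates 1 (circles), 2 (squares) and 3 (triangles), with black bars for the mean of 3 arrays and open symbols for spots saturated in both channels. Replicate 3 holds the highest values (Lpl at 1.53, Acads at 1.13 and Echs1 at 1.03), while the 3 arrays lie close together for Etfa, Acsl3, Mlycd and Rxra.

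Among genes of uptake and binding whose brightest probe was not saturated, Cd36 and Fabp5 had means of 0.03 and 0.02 by that probe. Lpl and Slc27a1 had higher means. Slc27a1 (fatty acid transport protein 1) had 2 probes that lie 885 bases apart and had nearly the same mean, 0.42 ± 0.38 and 0.44 ± 0.21 (SD, n = 3). The brighter probe gave log2 ratios of 0.70, -0.01 and 0.57, and the other gave 0.51, 0.60 and 0.20. Replicate 2 was thus low for the first and high for the second, and neither probe passed the test (limma adjusted p = 0.325 and 0.215). Cd36, the fatty acid translocase, gave -0.13, 0.11 and 0.10 with its brighter probe and -0.22, 0.17 and 0.50 with the other. Replicate 1 was below 0 and the other arrays above 0 with both probes of Cd36. The binding proteins of heart (Fabp3) and of endothelium and fat (Fabp4) were too bright to be compared. Fabp3 and the brighter probes of Fabp4 were saturated in both channels on replicates 2 and 3, where their ratios are set by the scanner's limit, and no fold is given for them. The dimmest Fabp4 probe was saturated on no array and gave 0.12, -0.21 and -0.26 (limma adjusted p = 0.743). Fabp5, the binding protein of skin and several other tissues, gave -0.38, -0.03 and 0.47, which spans 0.

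Lpl, the lipase that frees fatty acids from circulating lipoproteins, had the highest mean of all 41 genes and also the widest disagreement between probes. The brighter probe gave log2 ratios of -0.01, 0.45 and 1.53, a mean of 0.66 ± 0.79 (SD, n = 3; limma adjusted p = 0.347). Without replicate 3 its mean was 0.22, so that 1 array carried most of the value. The other Lpl probe gave -0.46, -0.04 and -0.03, at or below 0 on every array (mean -0.17 ± 0.25). Processed signals of the brighter probe on replicate 3 were 16474 in Cy5 and 5849 in Cy3, while those of the other probe were 6149 and 6130. The probes lie 5.22 kb apart on mouse chromosome 8 (mm9, plus strand). The sequences are shown because the same transcript was read at these positions with different results. Capitals mark AATAAA, the letters of the polyadenylation signal that ends most transcripts, which 5 of the 63 fatty acid probes (7.94%) and 4.78% of all gene probes hold. A match is no proof of a site. The dimmer probe (chr8:71425050-71425109) holds these letters with 1 of 3 reading frames free of stop codons. The first 30 bases are given for the brighter one (chr8:71430267-71430326), which lies nearer to the 3′ end.
Lpl, A_52_P257812: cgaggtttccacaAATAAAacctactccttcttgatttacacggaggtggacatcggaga
Lpl, A_51_P259296: gaacaccaacccacatgcaaaaccccacaa

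Among the genes of activation, 5 of 6 lay below 0, and the median log2 ratio was -0.10 (-0.27, -0.16 and -0.09 on the 3 arrays). Acsl3, a long-chain acyl-CoA synthetase of the endoplasmic reticulum and lipid droplets, had the lowest mean of all 41 genes. Its log2 ratios were -0.52, -0.35 and -0.32, a mean of -0.40 ± 0.11 (SD, n = 3; unadjusted p = 0.0107, limma adjusted p = 0.214). All 3 arrays gave the same direction with little spread, yet the value did not pass the test over all probes. Acot1, the cytosolic thioesterase that splits acyl-CoA back into fatty acid, gave -0.46, -0.27 and -0.08, and Acot2, its mitochondrial counterpart, gave -0.26, -0.01 and 0.33. Acot1 and Acot2 are close relatives that neighbour each other on chromosome 12, and a probe of either may bind both transcripts. Acsl1, the main synthetase of the adult heart, had 3 probes with means of -0.03 to 0.01, and its brightest probe gave 0.04, 0.32 and -0.42. Acsl4 had means of 0.16 and -0.14 by its 2 probes, and Acsl5 had -0.06.

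The carnitine shuttle showed no common direction, with 3 of 6 genes above 0 and a median of -0.01. Mlycd removes malonyl-CoA, the inhibitor of the first enzyme of the shuttle, and was the most even of the group. Its log2 ratios were -0.37, -0.32 and -0.25, a mean of -0.31 ± 0.06 (SD, n = 3; unadjusted p = 0.0277, limma adjusted p = 0.302). The enzyme that Mlycd relieves is carnitine palmitoyltransferase 1, whose liver form (Cpt1a) prevails before birth and whose muscle form (Cpt1b) prevails in the adult heart. Cpt1a gave -0.10, 0.08 and -0.08 by its probe of 10 spots per array, where single spots of 1 array ranged from -0.52 to 0.26. Its other probe gave -0.57, -0.11 and -0.10. Cpt1b gave -0.08, 0.06 and 0.87 by the brighter probe and 0.25, 0.10 and -0.07 by the other, so the high value of replicate 3 was seen with 1 probe of 2. Cpt2, the inner-membrane partner, gave 0.46, 0.21 and -0.65, with replicate 3 opposite to the others. Slc25a20, the carrier of acylcarnitine, had a mean of 0.15 ± 0.27 and Crat, which buffers acetyl-CoA on carnitine, had -0.23 ± 0.24 (SD, n = 3 each). None of these passed the test, the lowest adjusted p of the group being that of Mlycd.

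In beta-oxidation, 9 of 15 genes lay above 0, and the median log2 ratio was 0.13, with 0.04, 0.07 and 0.25 on the 3 arrays. The genes below 0 include Acaa2 and Etfb, which were saturated in both channels on replicates 2 and 3, so their signs are not informative. With the software's own ratios the median of the group was -0.03. Electron transfer flavoprotein takes electrons from the acyl-CoA dehydrogenases, and its subunit Etfa had the highest mean of the 15 genes. By the brightest probe of each gene, Acadl (0.49 ± 0.38) and Echs1 (0.46 ± 0.50) came next, followed by Etfdh. Etfa, the alpha subunit of electron transfer flavoprotein, gave log2 ratios of 0.73, 0.54 and 0.41, a mean of 0.56 ± 0.17 (1.47-fold; SD, n = 3). It ranked first among the fatty acid probes by p and did not pass (unadjusted p = 0.00241, limma adjusted p = 0.106). Etfdh, the membrane-bound oxidoreductase that passes these electrons to ubiquinone, gave 0.70, 0.50 and 0.15 by its brighter probe and 0.45, 0.31 and 0.32 by the other (means 0.45 ± 0.28 and 0.36 ± 0.08, limma adjusted p = 0.24 and 0.251). Etfdh was picked for a description after its values were seen, and its brighter probe was saturated in Cy5 on replicate 2. After loess all 9 values of these 3 probes were above 0, while by the software's ratios the brighter Etfdh probe gave -0.05 on replicate 3. Etfb, the partner of Etfa in the flavoprotein, was saturated in both channels on replicates 2 and 3 and gave 0.02 on replicate 1.

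The size of these differences depended on how the ratios were made. Etfa had processed signals of 21310, 35011 and 41076 in Cy5 against 17906, 30093 and 36928 in Cy3, and the software's ratios averaged 0.21 on the log2 scale, against 0.56 after loess. For Etfdh the software's means were 0.13 and 0.12. The direction of the means was the same, but the values were less than the loess means by more than 1.5 times. Of the 18 fatty acid probes with 1 direction on all arrays after loess, 12 had a software mean smaller by more than 1.5 times, among them those of Acsl3 (-0.24), Mlycd (-0.20), Hadhb (0.0858), Acadl (0.21), Echs1 (0.28) and Slc27a1 (0.27), and in 1, Hadh, the direction turned. The probes are shown because the 2 of Etfdh lie 12.0 kb apart in the gene (chr3:79419856-79419915 and chr3:79407815-79407874, mm9, minus strand) and gave like values, and because the Etfa probe maps over 17473 bases (chr9:55312637-55330109, minus strand), more than its own 60, so it crosses at least 1 splice junction and reads spliced RNA. Of the 63 probes, 5 map across a junction in this way (Etfa, Cd36, Fabp4, Acsl5 and Eci1). For the second Etfdh probe, in which all 3 reading frames hold stop codons, the first 30 bases are given.
Etfa, A_51_P131084: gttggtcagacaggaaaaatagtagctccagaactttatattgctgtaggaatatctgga
Etfdh, A_52_P397346: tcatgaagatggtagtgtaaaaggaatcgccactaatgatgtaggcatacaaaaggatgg
Etfdh, A_51_P161574: actgtaaatgtatgccaaactaacttcctg

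**Figure D2:**
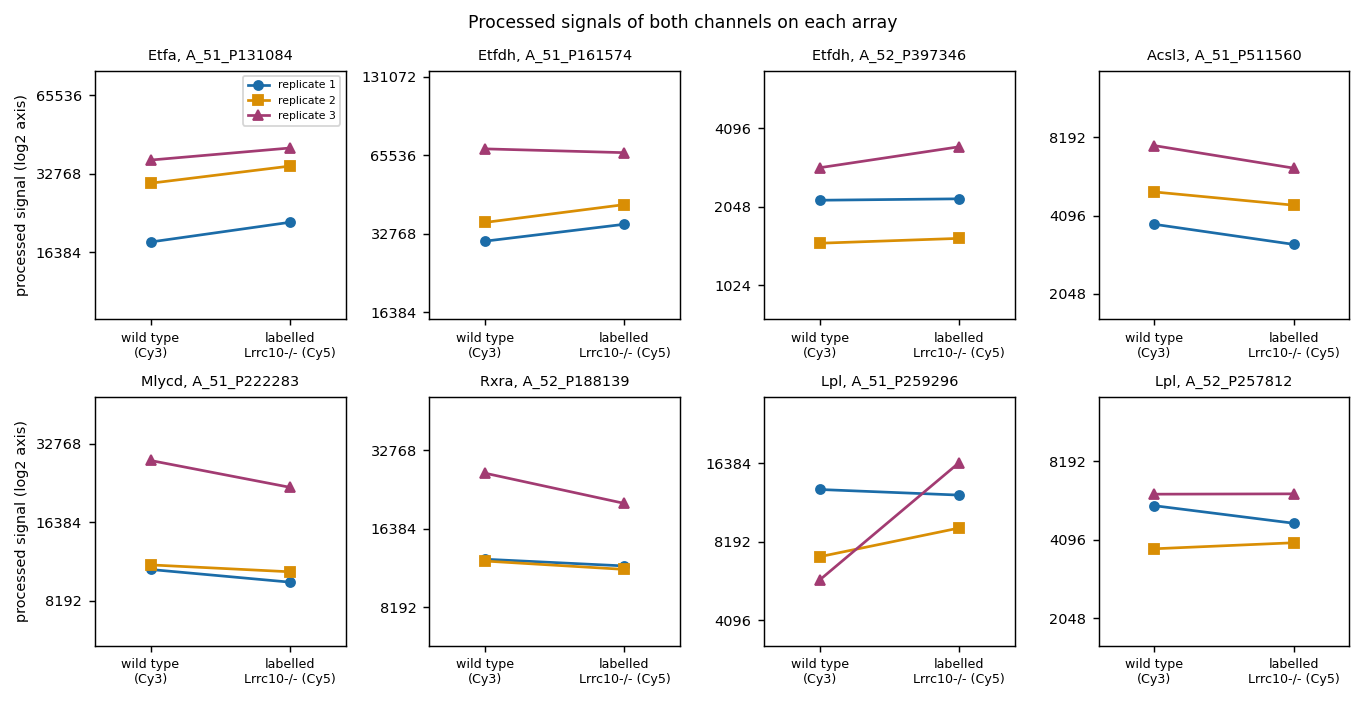
Processed signals (vertical axis, log2 scale) in the wild-type channel (Cy3) and the channel labelled Lrrc10-/- (Cy5), joined by a line for each of the 3 arrays, for 8 probes, each in a panel spanning the same range of folds. Etfa is higher in Cy5 on all 3 arrays, Acsl3, Mlycd and the Rxra probe are lower on all 3, and of the 2 Lpl probes A_51_P259296 has 1 steep line, that of replicate 3.

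The acyl-CoA dehydrogenases, which start each turn of the cycle on chains of falling length, had no common pattern over the arrays. Acadvl, for very long chains, gave 0.12, -0.05 and 0.02, with Cy5 saturated on replicates 2 and 3. Acadl, for long chains, gave 0.21, 0.35 and 0.93 (limma adjusted p = 0.257). Acadm, for medium chains, gave -0.59, 0.07 and 0.25, and Acads, for short chains, gave -0.03, -0.16 and 1.13. Acadl was above 0 on all arrays after loess, but by the software's ratios it gave -0.24 on replicate 1. Its highest value, like those of Acadm and Acads, was on replicate 3. Echs1, the enoyl-CoA hydratase of the second step, was also highest on replicate 3, with 0.07, 0.29 and 1.03 after loess (limma adjusted p = 0.355). By the software's ratios Echs1 gave -0.09 on replicate 1. Hadh, the short-chain dehydrogenase of the third step, had a mean of 0.13 ± 0.13 (SD, n = 3) and lay above 0 on 3 of 3 arrays after loess, but by the software's ratios the mean was -0.13, with 1 of 3 arrays above 0. Acaa2, the thiolase of the last step, was saturated in both channels on replicates 2 and 3, and over its 10 spots on replicate 1 the mean was 0.22 ± 0.28 (SD over spots). Acat1, which joins or splits acetoacetyl-CoA, had -0.07 ± 0.15 (SD, n = 3). Of the enzymes for unsaturated chains, Eci1 gave -0.26, 0.05 and 0.60, and Decr1 gave -0.27, 0.03 and -0.08 by its brighter probe and -0.57, -0.38 and -0.22 by the other. The dimmer probe of Decr1 was below 0 on every array (mean -0.39 ± 0.18, limma adjusted p = 0.246).

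Hadha and Hadhb encode the subunits of the trifunctional protein, which carries out the later steps on long chains. Hadhb gave 0.15, 0.21 and 0.39, a mean of 0.25 ± 0.13 (SD, n = 3; limma adjusted p = 0.422), above 0 on all arrays. Hadha had 3 probes that were read differently. The brightest, the nearest of them to the 3′ end of the gene, gave -0.22, -0.16 and 0.35. A probe 34.4 kb away, designed on a cDNA clone and not on the RefSeq transcript, gave 0.62, 0.87 and -0.01 (limma adjusted p = 0.296). The remaining one, between them and also designed on a cDNA clone, was not well above background on all arrays in either channel. It was not tested. The difference between the tested probes was 0.84 and 1.03 on replicates 1 and 2, and on replicate 3 the order was turned, with 0.36 between them. Parts of 30 bases of the 3 probes are shown, since they read 3 places of 1 gene (chr5:30446215-30446274, chr5:30480638-30480697 and chr5:30473804-30473863, mm9, minus strand). For the untested probe the last 30 bases are given, which hold AATAAA although the probe lies far from the 3′ end of the gene.
Hadha, A_52_P193029: ggaagcaggaaaaagaccaaggctagcctt
Hadha, A_52_P658044: cccaaatctgtaagggcaaatgtaacttca
Hadha, A_52_P338459: cctacatagaAATAAAatctccctgacttg

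**Figure D3:**
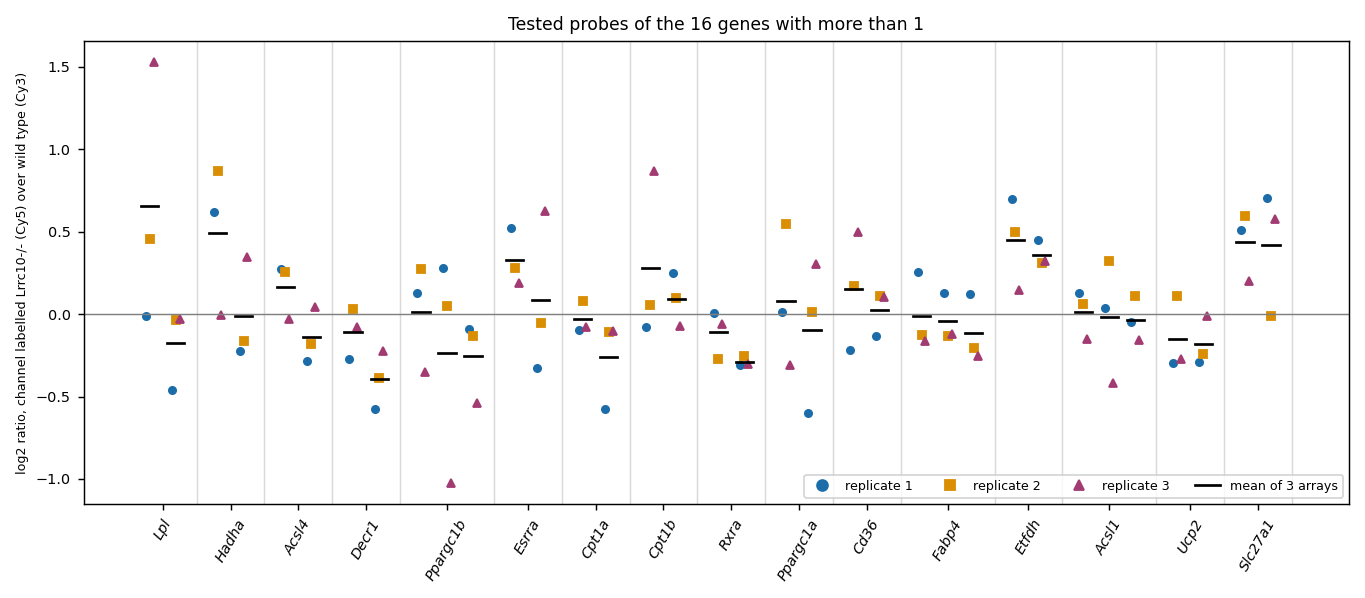
Log2 ratios (vertical axis) of every tested probe of the 16 genes with more than 1 tested probe, grouped by gene along the horizontal axis and ordered by the distance between the probe means, with 1 symbol per array and a black bar for the mean of 3 arrays. Lpl (0.83 apart) and Hadha (0.51 apart) have the widest distances, and the probes of Slc27a1 and Ucp2 nearly share a mean.

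Across the 16 genes with several tested probes the highest and lowest probe means were a median of 0.186 apart, and in 6 genes (37.5%) they had opposite signs. Over all genes with several tested probes the median was 0.227 and 55.1% had opposite signs. Lpl and Hadha were the genes with means more than 0.5 apart. A mean near 0.2 in either direction is thus of the size by which probes of a single gene differ.

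**Figure D4:**
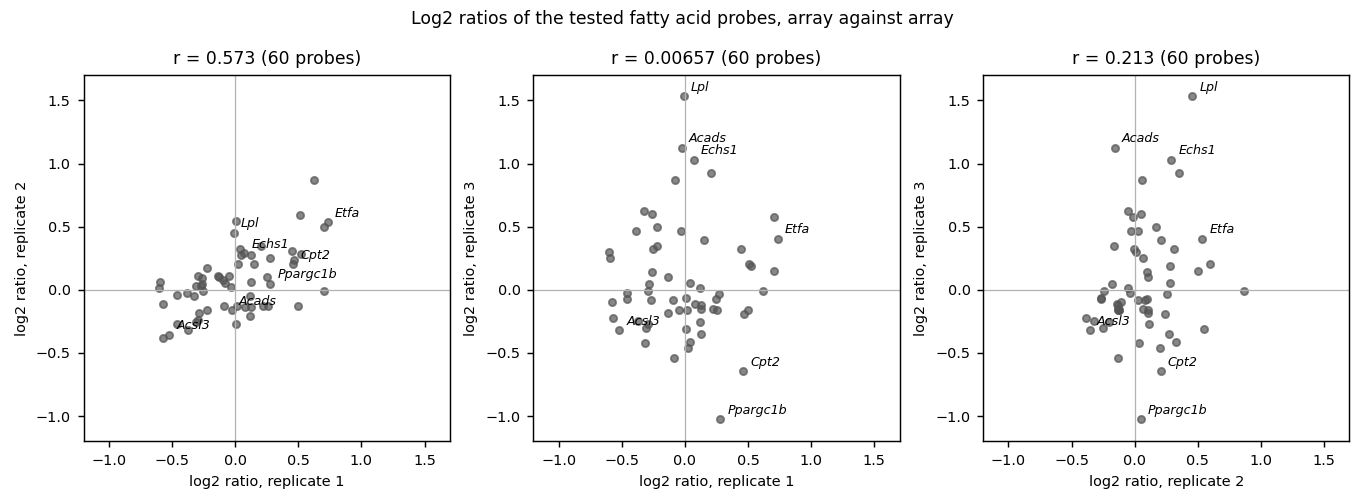
Log2 ratios of the 60 tested fatty acid probes on 1 array (horizontal axis) against another (vertical axis), with r across probes above each panel. Replicates 1 and 2 vary together (r = 0.573), while Lpl, Acads and Echs1 at the top and Cpt2 and Ppargc1b at the bottom of the panels with replicate 3 lie near or on the other side of 0 on replicate 1.

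Regulators lay on both sides of 0, with 3 of 8 tested genes above it and a median of -0.04. Ppara, the nuclear receptor that drives the genes of fatty acid oxidation, gave 0.47, 0.24 and -0.19 over 10 spots per array, with an SD over spots of 0.26, 0.16 and 0.05. Replicate 3 was below 0 at every spot (from -0.29 to -0.13), and the mean of 0.17 ± 0.34 (SD, n = 3) did not pass (limma adjusted p = 0.664). Rxra, the partner with which PPARs bind DNA, gave -0.31, -0.25 and -0.30 by its brighter probe, a mean of -0.29 ± 0.03 (unadjusted p = 0.0369, limma adjusted p = 0.339). The other Rxra probe gave 0.01, -0.27 and -0.06, and its software mean was 0.07. Ppard, a relative of Ppara, had -0.01 ± 0.22 (SD, n = 3). The coactivators Ppargc1a and Ppargc1b varied widely between arrays. Ppargc1a gave 0.01, 0.54 and -0.31 by its brighter probe and -0.60, 0.01 and 0.30 by the other, so that the order of the arrays was not the same. The brightest of 3 Ppargc1b probes, designed on a cDNA clone, gave 0.28, 0.05 and -1.03. The last is the lowest value of any fatty acid probe on any array. The means of the other Ppargc1b probes were -0.25 and 0.02.

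Esrra encodes ERRalpha, an orphan receptor that acts with PGC-1alpha on oxidative genes. By the rule of the study's size filter, a ratio of at least 1.2-fold in the same direction on all 3 arrays by the software's log ratio, 1 fatty acid probe was higher and 1 lower (1.67% each, against 3.62% and 1.71% of all tested probes). The higher one was the dimmer probe of Esrra, designed on a cDNA clone 5.57 kb from the other (chr19:6991170-6991229 against chr19:6985599-6985658, mm9, minus strand). Its software log2 ratios were 0.72, 0.36 and 0.26, and after loess it gave 0.52, 0.28 and 0.19 (limma adjusted p = 0.317). The brighter probe, on the RefSeq transcript, gave -0.32, -0.05 and 0.63 after loess, so the probes were in opposite order on replicate 3. The lower one was a probe of Ucp2, a mitochondrial carrier of the inner membrane, with software log2 ratios of -0.32, -0.36 and -0.30. It was well above background in Cy5 on 1 of 3 arrays and gave -0.29, -0.24 and -0.01 after loess (limma adjusted p = 0.565). When the rule was read on loess ratios, Etfa and the dimmer Etfdh probe were higher and Acsl3 was lower, none of them the probes picked by the software's ratios. No share of all tested probes is given for the loess reading, so these picks are not a result about the genes. The first 30 bases of the Esrra probes are given because the rule picked 1 of the 2.
Esrra, A_52_P198949: ggggaggtgaaactgacttggtcagaactg
Esrra, A_51_P248580: atgccctgcagagcaataacactatattta

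Ucp2 by its brightest probe gave -0.29, 0.11 and -0.27 after loess, and another of its probes was too dim to be tested. Ucp3, the relative of Ucp2 in muscle, was the gene without a tested probe, since its probe was well above background on 1 array in Cy5 and 2 in Cy3. Pdk4, the kinase that shuts pyruvate dehydrogenase when fatty acids are burned and a well-known PPAR target, gave 0.02, 0.20 and -0.46 (limma adjusted p = 0.867). In the promoters of RefSeq genes (GRCm38.p6, 250 bases before to 50 after the start), the letters AAGGTCA on either strand, a site that ERRalpha can bind, were in 2 of the 33 fatty acid genes matched (6.06%; Acadm and Rxra), beside 5.38% of all 27025 genes. These windows are short, and a match or its lack says nothing about binding.

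Without replicate 3, 4 of the 63 fatty acid probes tested had a higher ratio at a limma adjusted p under 0.05. Of all 35969 probes tested on those 2 arrays, 4.75% were higher and 0.82% lower. The 4 lie near that share and are not a result about these genes. Without replicate 1 or replicate 2, no fatty acid probe was called (lowest limma adjusted p = 0.578 and 0.307). Called without replicate 3 were the clone-based Hadha probe (0.74, limma adjusted p = 0.00166) and Etfa (0.63, 0.00784). The others were the brighter Etfdh probe (0.60, limma adjusted p = 0.0123) and the dimmer Slc27a1 probe (0.55, 0.0219). That Slc27a1 probe was also designed on a cDNA clone. The sequence of that Slc27a1 probe ends with AATAAA and 13 further bases (chr8:74111141-74111200, mm9, plus strand), and its last 30 bases are given beside the first 30 of the other (chr8:74110256-74110315).
Slc27a1, A_52_P199905: ggtttttaaaaAATAAAtgtgctgagcctc
Slc27a1, A_51_P117477: ggtacccacctccctttcctattgtgcctt

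In the wider pathway no gene passed the test either. Of 79 further genes of fatty acid and lipid handling, 73 were tested, and 0 were higher and 0 lower at an adjusted p under 0.05 by limma. Acot3, Slc27a2, Slc27a6, Ucp1 and Abcd2 were among those not well above background. The median log2 ratio was 0.02, with 41 genes above 0 and 32 below, and 7 in each direction had an unadjusted p under 0.05 (9.59% of the 73 each way, against 10.2% higher and 4.86% lower of all genes tested). The lowest p was that of Acsf2, an acyl-CoA synthetase, with 0.98, 0.41 and 0.88 (mean 0.76 ± 0.31, SD, n = 3; limma adjusted p = 0.0636). Decr2, the peroxisomal relative of Decr1, gave 0.42, 0.48 and 0.34, and Klf15, a transcription factor of cardiac lipid use, gave 0.63, 0.39 and 0.26 (limma adjusted p = 0.191 and 0.214). On the other side of 0 were Acad9, needed to assemble complex I, with -0.45, -0.39 and -0.57, and Plin2, the coat protein of lipid droplets, with -0.43, -0.49 and -0.44 (limma adjusted p = 0.148 and 0.152). Prkab2, a subunit of the energy sensor AMPK, gave -0.39, -0.39 and -0.67 (limma adjusted p = 0.16). These 6 genes were named for their low p, which itself asks for a like value on every array.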

How the data were processed

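Total RNA of E15.5 hearts was hybridised to Agilent whole mouse genome arrays of 60-base probes. The deposited scanner files hold spot intensity values, made per the file headers with Feature Extraction 9.1.3.1 (replicate 1) and 10.7.3.1 (replicates 2 and 3), while the submitters' processing notes name version 9.5. The authors' software gave background-subtracted, dye-normalized intensities and a log10 ratio of Cy5 over Cy3, and the deposited series table equalled that log10 ratio (largest difference 0).

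In R 4.3.3, limma 3.58.1 was used to subtract local background by normexp (offset 50, mean signal and median background) and to normalize each array by loess on the gene spots. Non-uniform spots, as the software flags them, were set to missing, and the log2 ratios of repeated spots of a probe were averaged. Tested probes were well above background on all 3 arrays in at least 1 of the channels. The 3 log2 ratios were tested against 0 (lmFit, eBayes, two-sided) with Benjamini-Hochberg adjustment over all 28328 tested probes and a threshold of 0.05. A spot counted as saturated in a channel if within 1% of that channel's highest signal on the array, or if the software flagged it so. A probe counted as saturated where most of its spots were. A gene is represented by its tested probe of highest mean intensity. The precision is limited by the number of arrays.

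Values on every array are given for genes called, the lowest p of each step and direction, and probes over 0.5 apart. They are also given for genes past 1.2-fold on all arrays and a fixed list of 17 genes. Left out are Fabp3 and the brighter Fabp4 probes, which were saturated, and Ucp3, which was not tested. Etfdh, Acadl, Echs1, Acads and Hadh were added after their values were seen, and so were further genes whose values are given by array. The genes and lists were chosen with earlier results of these data known. Gene names come from the files and were brought up to date by RefSeq accession (26933 of 27730 matched), and positions are mm9, as the files give them. The state of 1 listed gene is not reported here. The pipeline was tested on simulated data. Alternatives are given in the closing observations.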

Additional observations from a re-analysis of the deposited data

How the results depend on the processing

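No fatty acid probe was called under the 12 alternatives of background, normalization, filter, test, weights, software block, flags and base content, the methods' t-test among them. The lowest adjusted p of a fatty acid probe under these ranged from 0.0603 (arrayWeights) to 0.726 (processed signals). Leaving out 1 array gave 0 to 4 called higher, the 4 without replicate 3. Over all probes the count called higher, 395, was 0 with processed signals, scaled ratios and the t-test, 1 without background correction and with the software version as a block, 145 without a filter on dim probes, and 1 to 1709 without 1 array. The count called lower, 1, was 0 with processed signals, no background correction, scaled ratios, no filter, the t-test and the software block, 2 with median centring, 3 with an intensity trend, 3 with base-content correction, 11 with arrayWeights, and 0 to 295 without 1 array. The median log2 ratio of the 41 genes, 0.01, was -0.0561 with processed signals and -0.0716 with median centring, where the medians of all tested probes were -0.0393 and -0.0111. With processed signals the medians of beta-oxidation and the shuttle were -0.0339 and -0.14. Without saturated probes that of uptake was 0.22. The count past 1.2-fold higher on all arrays, 1, was 2 by loess ratios and 2 to 3 without 1 array, and the count lower, 1, was 2 without the filter, 0 with both channels required and 2 to 5 without 1 array. Shares of all tested probes are not given for these other counts. Lrrc10 was 5.21 with processed signals, 4.62 with scaled ratios and 4.41 in the t-test, with adjusted p of 0.27, 0.424 and 0.504. The causes of these shifts were not tested. Base-content correction and leaving out saturated probes were chosen after seeing the data. With processed signals Hadh reversed, from 0.13 to -0.133. Of the other probes with 1 direction on all arrays that were recomputed under every setting, none reversed. The test of each ratio against 0 is itself the comparison within the paired pools of an array.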
